A study of Mus musculus with 17 samples.

Results

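Astrocytes of the visual and the auditory nucleus of the mouse thalamus were compared across all genes, as 5 libraries from the dorsolateral geniculate (dLG) nucleus against 4 from the ventral division of the medial geniculate (MGv) nucleus. These 9 libraries were chosen by their sample labels, out of 17 astrocyte libraries in the series, and no measured value was used to choose them. The other libraries, 4 from the VPM nucleus and 4 from the cortex, entered no test between the dLG and the MGv except where a fit of all thalamic nuclei is named. All animals were Gfap::GFP transgenic mice on an FVB background at postnatal day 7 (P7), without treatment. Each library held cells of 4 pooled brains, sorted by green fluorescence, so that the cells obtained are those in which the *Gfap* promoter drove the reporter, and one library is one pool and not one animal.

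Both nuclei are first-order relays. The dLG receives its driving input from the retina and projects to the visual cortex, and the MGv receives its input from the inferior colliculus and projects to the auditory cortex. Their excitatory neurons arise from progenitors that are patterned along the axes of the diencephalon by secreted signals, among them Wnt proteins, and by transcription factors such as the zinc finger proteins of the Zic family and the homeobox proteins of the Iroquois family. Astrocytes arise later from such progenitor domains, support synapses, take up transmitter, and buffer potassium, and they are coupled to each other by gap junctions.

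The deposited values are raw read counts per gene, and totals ranged from 18785731 to 21371571 counts per library. Levels are given here as CPM (counts relative to the library total, scaled between libraries by the TMM method of edgeR) in the order of the replicate letters, a to e in the dLG and a to d in the MGv. Means are given ± SD (n = 5 in the dLG and n = 4 in the MGv). A level of 3 counts corresponded to between 0.138 and 0.158 CPM, a floor that covers counting error only. The summed level of 20 astrocyte markers lay between 19842 and 23526 CPM in the dLG and between 17715 and 27266 CPM in the MGv. *Gfap* itself ran from 79.8 to 1359 CPM in the dLG and from 37.4 to 5733 CPM in the MGv, the lowest and the highest value both among MGv libraries. Oligodendrocyte lineage markers summed to between 9238 and 10868 CPM in the dLG and between 7823 and 10366 CPM in the MGv, microglia markers to at most 160.5 CPM, and endothelial markers to at most 49.6 CPM in any library. Neuron markers summed to between 1465 and 1863 CPM in the dLG, but to 2122, 872, 792, and 1730 CPM in MGv replicates a, b, c, and d, so that 2 of the 4 MGv libraries lay below and 1 above every dLG library. No tested marker of these 4 cell types or of inhibitory neurons, mural cells, and ependyma passed edgeR's test between the nuclei. An unadjusted p under 0.05 was found for 2 neuron, 3 inhibitory neuron, and 2 oligodendrocyte markers, of which DESeq2 called 1, 2, and 0. Over all genes tested, 2.27% had an unadjusted p under 0.05 and were higher in the dLG, as these 7 markers were, and 2.17% had one and were higher in the MGv. DESeq2 called 0.782% of the genes it gave an adjusted p as higher in the dLG and 0.634% as higher in the MGv. In pooled sorted cells, more cells of a type and more RNA per cell cannot be told apart.

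One library stood apart. In dLG replicate c, 17749 genes had at least 1 read, against 21052 to 23058 in the other 8 libraries, at the highest total of all. Of the genes tested, 1615 were at 0 in that library and 46 to 369 in the others. By the numbers in the sample labels it is the only one of its library number series, whereas all MGv libraries and dLG replicates a and b belong to the largest series and dLG replicates d and e to another. In a principal components analysis of the 500 most variable genes, the first component held 51.3% of the variance and placed dLG replicate c at a score of 82.9 and the other libraries between -23.99 and 4.15. The second component held 16.01%, and dLG replicates a, b, d, and e had scores of 12.3 to 31.3, the MGv libraries scores of -21.1 to -9.10, and dLG replicate c one of -11.7. Mean scores of the nuclei differed by 31.7 on the first component (p = 0.0476, 2-sided exact permutation test over all arrangements of the 9 libraries) and by 26.5 on the second (p = 0.0317, same test). Without dLG replicate c, the first component held 33.1% of the variance and all 4 remaining dLG libraries (4.46 to 42.0) lay above all 4 MGv libraries (-24.7 to -12.6), with p = 0.0286, the smallest p that 70 arrangements allow in this exact permutation test. The counts of genes that differed are therefore also given without this library, as are the values of genes named with them.

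**Figure D1:**
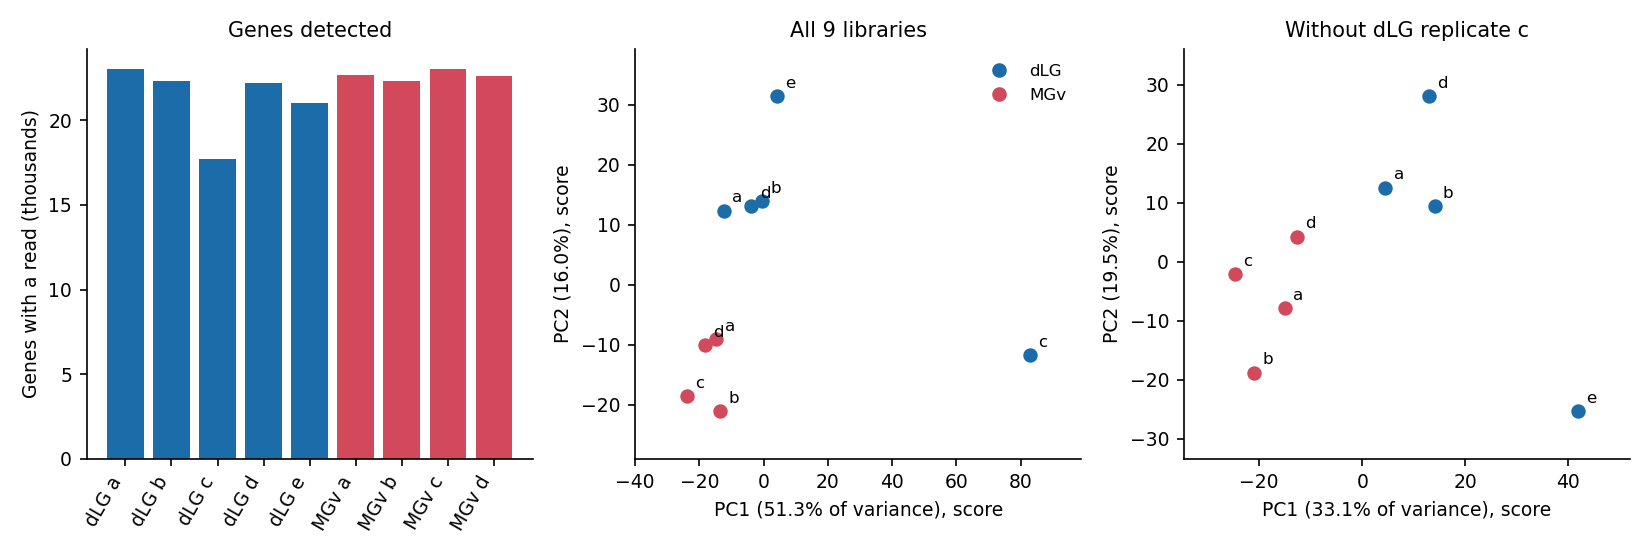
Genes with at least 1 read per library (left) and scores of the libraries on the first and second principal components with all 9 libraries (middle) and without dLG replicate c (right), with the replicate letter beside each point. dLG replicate c has the fewest genes, 17749, and lies alone at the right of the middle panel, and in the right panel the dLG libraries lie to the right of the MGv libraries.

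Of 16572 genes tested with edgeR's quasi-likelihood test, 66 differed between the nuclei at a Benjamini-Hochberg adjusted p under 0.1. Of these, 39 were higher in the dLG, or 0.235% of the genes tested, and 27 were higher in the MGv, or 0.163%. A log2 fold change (log2FC, dLG over MGv) above 1 in size was reached by 38 of the former and 22 of the latter, and the median over all genes tested was 0.00. In all 66 genes the lowest library of the higher nucleus lay above the highest library of the other, which was the case for 1.15% of the genes tested in the direction of the dLG and for 1.23% in that of the MGv. The shares of 0.235% and 0.163% are the background for the called list members given below. Transcription factors, Wnt signaling genes, and neuropeptide genes were among the calls in both directions. Without dLG replicate c the counts were 48 and 37, with 38 and 22 of the same genes. *Foxp2*, *Npas1*, *Alpl*, *Kcnc4*, and *Gm973* no longer passed then, and *A730094K22Rik* was not tested. The log2FC without this library was 4.52 for *Sp9* (adjusted p = 0.000655), 2.91 for *Zic1* (0.0218), 4.18 for *Six3* (0.00101), 2.28 for *Wnt3* (0.00306), 1.34 for *Gjb6* (0.00718), and 0.78 for *Ptn* (0.0755). On the side of the MGv it was -4.75 for *Fzd2* (0.00101), -6.66 for *Crabp2* (0.00212), -1.28 for *Irx3* (0.0218), -0.86 for *Irx5* (0.0925), -1.54 for *Il33* (0.0159), and -1.34 for *Btg2* (0.0128). Leaving out any other single library gave 25 to 36 genes higher in the dLG and 11 to 28 higher in the MGv, both lowest without MGv replicate d. Within the largest library number series, which leaves 2 dLG libraries against 4 MGv libraries, 21 and 9 genes passed. Of these, 21 and 6 were among the 39 and 27 genes. All 66 genes had the same direction as with all libraries, which their lack of overlap made nearly certain in any subset. With the series as a covariate in a fit of all 9 libraries, 18 and 4 genes passed, of which 18 and 3 were among the 39 and 27 genes. The other series held only dLG libraries, so that this fit too compared the nuclei through dLG replicates a and b alone.

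**Figure D2:**
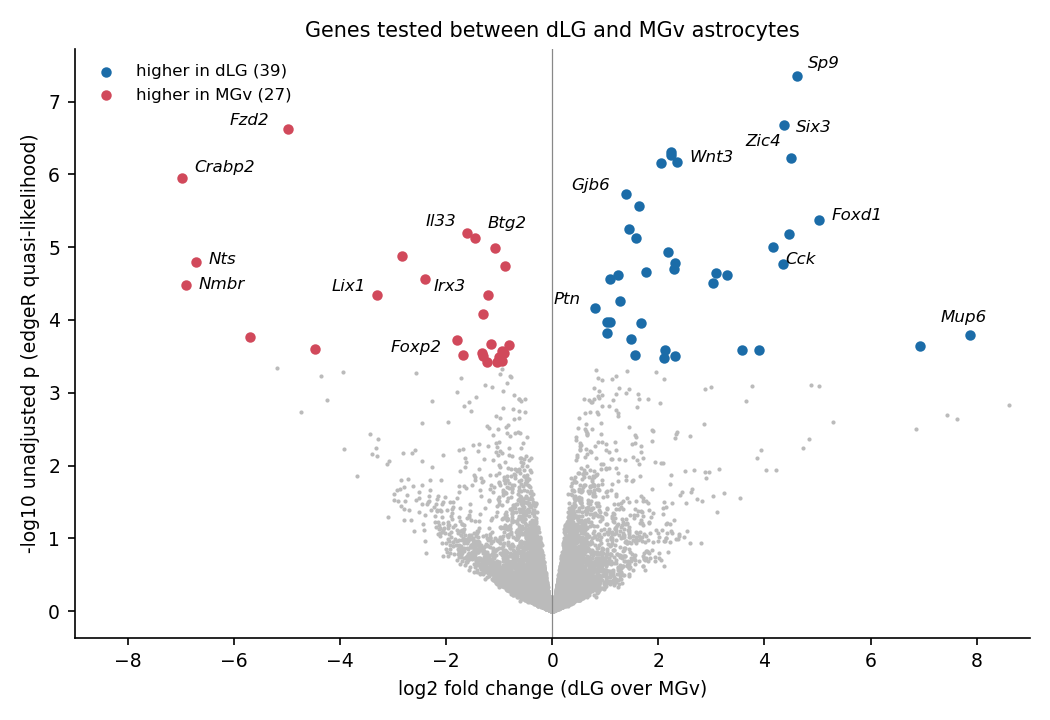
Log2 fold change (dLG over MGv) against -log10 of the unadjusted p of edgeR's quasi-likelihood test for the 16572 genes tested. Blue points are the 39 genes higher in the dLG, red points the 27 genes higher in the MGv, grey points the genes that did not pass an adjusted p under 0.1, and genes of both colors reach changes of several log2 units.

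*Zic1* and *Zic4* were higher in the dLG. Zic genes encode zinc finger transcription factors of the dorsal and caudal neural tube. *Zic1*, on chromosome 9 from 91358058 to 91365810, was at 48.4, 59.7, 95.6, 34.7, and 87.9 CPM in the dLG and 13.96, 2.901, 4.64, and 9.22 CPM in the MGv. Every dLG library lay above every MGv library, and the log2FC was 3.08 (SE 0.46, adjusted p = 0.0135). Its neighbor *Zic4*, on chromosome 9 from 91362413 to 91389348, was at 32.4, 36.3, 52.2, 27.5, and 24.3 CPM in the dLG and at 1.79, 0.422, 1.04, and 2.77 CPM in the MGv, with the same separation. This is a mean of 34.5 ± 10.9 against 1.505 ± 1.01 CPM and a log2FC of 4.51 (SE 0.47, adjusted p = 0.00146). *Zic2* and *Zic5* did not pass the threshold. *Zic5* was at 18.3 to 23.03 CPM in the dLG and 1.695 to 8.19 CPM in the MGv, a log2FC of 1.97 (adjusted p = 0.12), and *Zic2* had one of 3.66 (adjusted p = 0.183) at 2.49 to 3.501 CPM against 0 to 0.542 CPM. The Zic, Iroquois, and Ebf families had 12 tested members of 15. Of these, 3 were higher in the dLG and 2 in the MGv, against 0.235% and 0.163% of all genes tested, and the median log2FC was 0.65. At an unadjusted p under 0.05 there were 6 and 4, against 2.27% and 2.17% of all genes, and DESeq2 called 6 and 3.

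*Sp9* had the lowest p of all genes. It encodes a zinc finger transcription factor known from inhibitory neurons of the forebrain and lies on chromosome 2 from 73271925 to 73284706. Its level was 43.3, 82.9, 76.3, 56.6, and 43.5 CPM in the dLG and 1.74, 2.06, 1.53, and 4.47 CPM in the MGv, so that the lowest dLG library held many times the level of the highest MGv library. The log2FC was 4.62 (SE 0.38, adjusted p = 0.000737). *Six3*, a homeobox gene of the anterior neural plate and the eye field (chromosome 17 from 85613608 to 85629302), was at 30.8, 26.4, 44.1, 15.1, and 31.9 CPM in the dLG and at 0.648, 1.16, 1.87, and 2.03 CPM in the MGv. The lowest level was that of dLG replicate d, still above all MGv libraries, and the log2FC was 4.37 (SE 0.42, adjusted p = 0.00131). The noncoding *Six3os1*, on the opposite strand (chromosome 17 from 85600651 to 85618398), was at 32.5, 18.7, 58.8, 11.4, and 26.7 CPM in the dLG and 2.64, 1.002, 1.28, and 0.461 CPM in the MGv, a log2FC of 4.46 (SE 0.59, adjusted p = 0.00735). Of its exonic length, 10.8% is shared with other genes, and without knowledge of the strand used in counting its reads cannot be told apart from those of *Six3* there. *Sp9* and *Six3* were the 2 called members among 10 tested of 22 listed factors of GABAergic lineages, which had a median log2FC of 1.82. Of the 10, 5 had an unadjusted p under 0.05, all higher in the dLG, and DESeq2 called 3. Over all genes tested, 0.235% were called higher in the dLG and 2.27% had an unadjusted p under 0.05 in that direction. The abundant member *Nkx2-2* was not called, at 93.1 to 144 CPM in the dLG and 111 to 156 CPM in the MGv. The inhibitory neuron marker *Gad1* reached 37.2 CPM in the dLG and 27.97 CPM in the MGv (log2FC 0.25, adjusted p = 1). *Gad2* and *Slc32a1*, markers of the same class, had log2FCs of 2.50 and 2.05 without passing the threshold. The median log2FC of the 5 tested inhibitory neuron markers was 2.05, and the summed level of the class was 29.8 to 57.5 CPM in the dLG and 29.8 to 35.5 CPM in the MGv. The part of inhibitory neurons in the levels of *Sp9* and *Six3* was not tested.

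*Foxd1*, a forkhead gene of the ventral diencephalon, the retina, and the kidney stroma (chromosome 13 from 98354242 to 98359305), was at 27.9, 25.8, 38.6, 20.5, and 13.2 CPM in the dLG and at 0.199, 2.06, 0.592, and 0.277 CPM in the MGv. The groups were far apart, and the log2FC was 5.02 (SE 0.63, adjusted p = 0.00577). *Gsx2*, a homeobox gene of the lateral ganglionic eminence, was lower in abundance, with 6.79 to 13.5 CPM in the dLG and 2.63 to 3.904 CPM in the MGv and a log2FC of 1.57 (SE 0.32, adjusted p = 0.0848). *Dmrtb1*, of the DM domain family, had 60.3 ± 9.97 CPM in the dLG and 28.2 ± 6.16 CPM in the MGv, a log2FC of 1.10 (SE 0.19, adjusted p = 0.0436). *Ebf1*, which was listed here for the dLG, was at 11.4, 16.6, 32.8, 6.95, and 8.48 CPM in the dLG and 7.13, 5.33, 4.14, and 4.797 CPM in the MGv. The groups overlapped, the highest value was that of dLG replicate c, and the log2FC was 1.51 (SE 0.44, adjusted p = 0.417).

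On the side of the MGv, the homeobox genes that differed belonged to the Iroquois family. *Irx3*, on chromosome 8 from 91798525 to 91802067, was at 24.7, 36.1, 39.2, 36.5, and 28.2 CPM in the dLG and 59.9, 97.4, 65.04, and 82.5 CPM in the MGv. The groups did not overlap, and the log2FC was -1.21 (SE 0.19, adjusted p = 0.021). *Irx5* (chromosome 8 from 92357625 to 92376286) was at 51.4, 65.3, 41.2, 74.2, and 54.4 CPM in the dLG and 109.6, 139, 103, and 92.8 CPM in the MGv, a log2FC of -0.96 (SE 0.19, adjusted p = 0.0805). Beside it lies the noncoding gene *Crnde* (chromosome 8 from 92326033 to 92356120), at 9.16 ± 1.42 CPM in the dLG and 20.2 ± 3.82 CPM in the MGv, with a log2FC of -1.14 (SE 0.22, adjusted p = 0.0731). *Irx2* lay without overlap at 46.98 to 90.2 CPM in the dLG and 96.5 to 102 CPM in the MGv, but its log2FC of -0.47 (adjusted p = 0.828) did not pass, and *Irx1* had -0.21 (adjusted p = 1). These changes, close to 1 on the log2 scale, were in genes with levels above 20 CPM in all 9 libraries for *Irx3* and *Irx5*, whereas *Zic4*, *Six3*, *Sp9*, and *Foxd1* had a mean of at most a few CPM in the MGv. Within the largest library number series the adjusted p was 0.185 for *Irx3* and 0.332 for *Irx5*, at log2FCs of -1.33 and -0.93.

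*Foxp2*, a forkhead gene of thalamic and other projection neurons (chromosome 6 from 14901349 to 15441977), was at 15.9, 19.9, 13.1, 12.98, and 13.9 CPM in the dLG and at 90.6, 28.6, 27.4, and 63.5 CPM in the MGv. Every MGv library lay above every dLG library, with MGv replicates a and d well above b and c, and the log2FC was -1.79 (SE 0.34, adjusted p = 0.0655). Without dLG replicate c its adjusted p was 0.105, at a log2FC of -1.75. *Npas1*, of the bHLH-PAS family, was at 26.7 to 46.98 CPM in the dLG and 50.3 to 82.8 CPM in the MGv, with a log2FC of -1.01 (SE 0.20, adjusted p = 0.0868). *Cebpb*, a leucine zipper factor of stress and immune responses, was at 17.4 to 22.1 CPM in the dLG and 26.3 to 40.04 CPM in the MGv, with a log2FC of -0.91 (SE 0.18, adjusted p = 0.0832), and other genes overlap 20.7% of its exonic length. *Gbx2*, a homeobox gene of thalamic neurons, was at 2.82, 0.438, 0, 1.83, and 0.421 CPM in the dLG and at 18.9, 7.44, 11.5, and 30.7 CPM in the MGv. It did not overlap between the nuclei but missed the threshold, with a log2FC of -3.95 (SE 0.84, adjusted p = 0.12). *Bcl11a*, which encodes a zinc finger factor, was at 4.18, 5.35, 12.1, 5.73, and 9.48 CPM in the dLG and 36.1, 18.8, 13.02, and 28.8 CPM in the MGv, a log2FC of -1.71 (SE 0.37, adjusted p = 0.13), also without overlap. Of 9 tested thalamic glutamatergic lineage factors of 12 listed, edgeR called 1, *Foxp2*, and the median log2FC of the list was 0.19. At an unadjusted p under 0.05, 3 were higher in the dLG and 2 in the MGv, against 2.27% and 2.17% of all genes tested. DESeq2 called 1 higher in the dLG and 3 higher in the MGv. *Tcf7l2* and *Rora*, the most abundant members, were not called. *Tcf7l2* ran from 292 to 442 CPM in the dLG and from 287 to 678 CPM in the MGv, and *Rora* from 168 to 225 and 99.2 to 246 CPM.

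**Figure D3:**
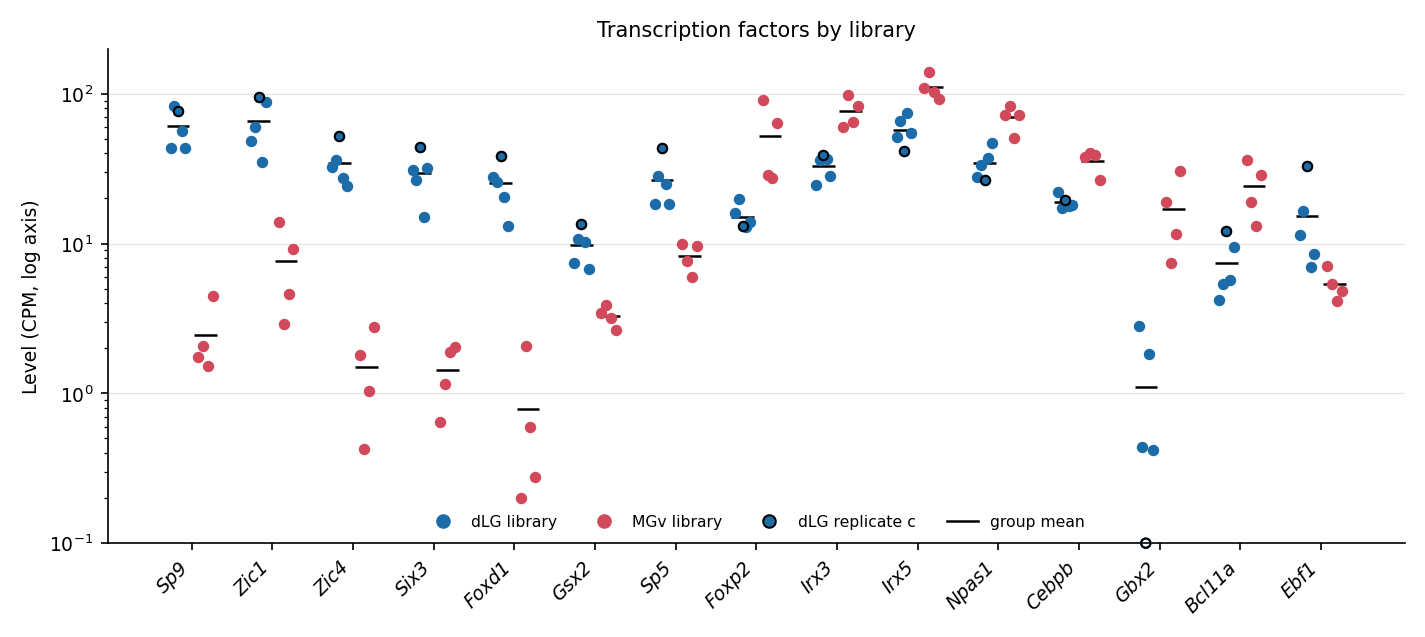
Levels of 15 transcription factor genes (CPM, log axis) in the 5 dLG libraries (blue) and the 4 MGv libraries (red), with bars at the group means. dLG replicate c is outlined in black, and an open point on the lower edge is a library below the axis, here *Gbx2* in dLG replicate c at 0. The groups are separate from *Sp9* through *Bcl11a* and overlap for *Ebf1*.

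Among the genes listed here for these nuclei after the study, edgeR called 3 of 5 for the dLG higher in the dLG (*Sp9*, *Zic1*, and *Wnt3*). It called 2 of 7 for the MGv higher in the MGv (*Crabp2* and *Foxp2*). The median log2FC was 2.34 over the former list and -1.79 over the latter, and none was called in the opposite direction. In edgeR's test 5 of the 5 and 5 of the 7 had an unadjusted p under 0.05 in these directions. Over all genes tested the shares were 2.27% and 2.17%. DESeq2 called 4 of the 5 and 4 of the 7, against 0.782% and 0.634% of the genes it gave an adjusted p. Of the listed genes, the text of the study assigns *Sp9* and *Hs6st2* to the dLG and *Crabp2* and *Tshz1* to the MGv. For *Sp9* and *Crabp2* it does so from astrocytes and neurons of the same nucleus, as examples of genes that both share. For *Hs6st2* and *Tshz1* as for these, it draws on neurons of the nuclei, induced neurons, and histone marks. The marks are described there as independent of the basal expression in astrocytes. The lists were drawn up with such results known, so that the counts are not independent evidence of their direction. *Hs6st2*, which encodes a heparan sulfate sulfotransferase, was at 27.8, 68.2, 18.8, 62.3, and 34.8 CPM in the dLG and 16.6, 11.7, 28.8, and 26.4 CPM in the MGv, with overlap and a log2FC of 1.02 (adjusted p = 0.848). *Sema3f*, a repulsive guidance cue, was at 0 to 2.19 CPM in the dLG and 2.796 to 10.7 CPM in the MGv, without overlap but with a log2FC of -2.86 (adjusted p = 0.724). *Lhx2*, a LIM homeobox gene, had a log2FC of -0.83 (adjusted p = 1), and *Tshz1*, a zinc finger gene, one of -0.28 (adjusted p = 1), and both overlapped between the nuclei. All 7 genes listed for the MGv were higher in MGv replicates a and d, whose neuron marker sums were 2122 and 1730 CPM, than in replicates b and c, where the sums were 872 and 792 CPM. The same order held for 16.99% of all genes tested, for 5 of the 27 genes higher in the MGv, and for 13 of the 39 genes higher in the dLG. With the mean log2 level of the neuron markers as a covariate, 3 of the 7 genes passed, *Foxp2* (adjusted p = 0.00188), *Crabp2* (0.00555), and *Bcl11a* (0.0593), and the counts over all genes were 24 higher in the dLG and 15 higher in the MGv. These are general neuron markers, so that neuronal RNA particular to either nucleus is not taken out by this covariate and was not tested.

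Several of the genes that differed lie side by side in the genome and moved in the same direction. *Zic4* and *Zic1* lie on opposite strands and share the 5′ part of their annotated extents, with starts 3397 bases apart, and the noncoding transcript *A730094K22Rik* lies beyond *Zic1*. The latter was at 0.369 to 0.971 CPM in the dLG and at 0 in all MGv libraries, at least 5.04-fold higher than 3 counts per MGv library. *Six3* and *Six3os1* share their 5′ parts in the same way, with starts 4790 bases apart. *Wnt9b* and *Wnt3* start 24329 bases apart on opposite strands, and *Crnde* and *Irx5* start 1505 bases apart on opposite strands, with *Irx3* about 554 kb from *Crnde*. Exons shared with other annotated genes made up 5.11% of *Zic4*, 1.05% of *Zic1*, and 5.03% of *Six3*, and reads from there cannot be told apart by strand. Each of these 4 groups was of one direction, toward the dLG for the Zic, Six3, and Wnt groups and toward the MGv for the Iroquois group.

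Wnt signaling genes were called in both directions. Wnt proteins are secreted ligands that bind Frizzled receptors and, through β-catenin, act on target genes by way of TCF and LEF factors. A Wnt pathway list had 35 tested members of 38. Of these, 3 were higher in the dLG and 2 in the MGv, against 0.235% and 0.163% of all genes tested. At an unadjusted p under 0.05 there were 8 and 4, against 2.27% and 2.17% of all genes, and DESeq2 called 6 and 3. The median log2FC of the list was 0.06. Among ligands, *Wnt3*, on chromosome 11 from 103774150 to 103817957, was at 53.4, 59.3, 72.5, 48.03, and 74.6 CPM in the dLG and 9.27, 18.5, 9.81, and 10.98 CPM in the MGv. The groups were well apart, at a log2FC of 2.34 (SE 0.25, adjusted p = 0.00146). *Wnt9b* (chromosome 11 from 103727364 to 103749821), which was not on the list, was at 9.86, 13.9, 7.95, 8.52, and 9.85 CPM in the dLG and at 2.09, 0.0528, 0.345, and 0.8302 CPM in the MGv, a log2FC of 3.58 (SE 0.70, adjusted p = 0.0805). Among receptors the nuclei differed in opposite directions. *Fzd10* (chromosome 5 from 128600844 to 128604093) was at 103, 166, 149, 138, and 206 CPM in the dLG and at 56.9, 58.4, 52.6, and 56.9 CPM in the MGv, where the libraries were close together, and the log2FC was 1.44 (SE 0.19, adjusted p = 0.00727). *Fzd2* (chromosome 11 from 102604396 to 102608058) was at 1.603, 2.43, 0.771, 1.72, and 5.21 CPM in the dLG and at 52.3, 122, 59.6, and 61.7 CPM in the MGv, a mean of 2.35 ± 1.71 against 73.9 ± 32.2 CPM. Its log2FC of -4.98 (SE 0.48, adjusted p = 0.00131) had the lowest p of all genes higher in the MGv, and it was called under each of the 19 alternative fits. *Fzd7*, a close relative, had a log2FC of -2.26 (adjusted p = 0.183), and *Fzd3*, the most abundant list member that was not called beside *Tcf7l2*, was at 149 to 223 CPM in the dLG and 142 to 163 CPM in the MGv.

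Among inhibitors on the list, *Nkd1* was higher in the dLG and *Sfrp1* higher in the MGv. *Nkd1*, an intracellular feedback inhibitor that Wnt signaling induces, was at 123, 169.5, 235, 168, and 144 CPM in the dLG and 70.6, 83.1, 86.3, and 87.3 CPM in the MGv. The highest value was that of dLG replicate c, and the log2FC was 1.04 (SE 0.18, adjusted p = 0.0436) with and 0.89 (adjusted p = 0.0359) without this library. *Sfrp1*, a secreted inhibitor that binds Wnt ligands, was at 15.7, 12.3, 16.2, 23.2, and 12.7 CPM in the dLG and 36.3, 51.1, 35.4, and 35.9 CPM in the MGv, a log2FC of -1.31 (SE 0.22, adjusted p = 0.0347). *Sp5*, which encodes a transcription factor known as a direct Wnt target, was at 18.3, 28.2, 43.3, 25.00, and 18.4 CPM in the dLG and 9.87, 7.65, 6.02, and 9.69 CPM in the MGv. Again the groups did not overlap and dLG replicate c was highest, with a log2FC of 1.68 (SE 0.30, adjusted p = 0.0438). *Sp5* was not on the list. The target genes *Axin2*, *Lef1*, and *Notum*, which were on it, were not called. *Axin2* had a log2FC of 0.57 (adjusted p = 1), *Lef1* one of 1.52 (adjusted p = 0.527), and *Notum* was at 0 to 1.397 CPM in the dLG and 0.422 to 0.838 CPM in the MGv.

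**Figure D4:**
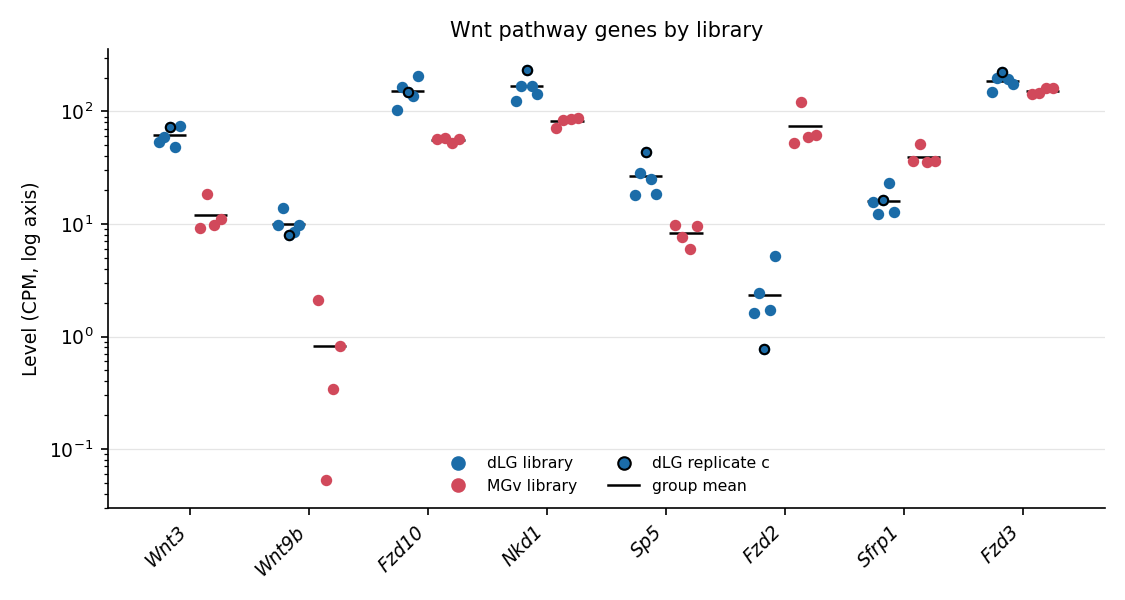
Levels of 7 Wnt signaling genes that differed between the nuclei and of *Fzd3*, which did not pass the test (CPM, log axis), in the 5 dLG libraries (blue) and the 4 MGv libraries (red), with bars at the group means and dLG replicate c outlined. *Wnt3*, *Wnt9b*, *Fzd10*, *Nkd1*, and *Sp5* are higher in the dLG, *Fzd2* and *Sfrp1* are higher in the MGv, and *Fzd3* overlaps.

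The 250 bases before the annotated start of each gene in RefSeq (GRCm38.p6) were searched for a form of the core motif of TCF and LEF factors, CTTTGAT on either strand. It was found in 3.21% of all 32851 windows, in 2 of the 30 genes higher in the dLG that have a window, *Sp5* and *Hdc*, and in none of the 20 genes higher in the MGv with a window or the 24 genes of the Wnt list with one. Both windows that hold it are given 5′ to 3′ on the strand of the gene, with the motif in capitals, on chr2:70474673-70474922 (plus strand) for *Sp5* and chr2:126618679-126618928 (minus strand) for *Hdc*. The match begins 104 bases before the start of *Sp5* and 119 bases before that of *Hdc*, where it reads on the opposite strand.
Sp5: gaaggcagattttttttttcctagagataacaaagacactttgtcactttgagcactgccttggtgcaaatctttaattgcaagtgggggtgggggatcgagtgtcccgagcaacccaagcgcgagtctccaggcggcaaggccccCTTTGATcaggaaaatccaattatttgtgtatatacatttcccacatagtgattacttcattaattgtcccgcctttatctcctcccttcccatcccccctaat
Hdc: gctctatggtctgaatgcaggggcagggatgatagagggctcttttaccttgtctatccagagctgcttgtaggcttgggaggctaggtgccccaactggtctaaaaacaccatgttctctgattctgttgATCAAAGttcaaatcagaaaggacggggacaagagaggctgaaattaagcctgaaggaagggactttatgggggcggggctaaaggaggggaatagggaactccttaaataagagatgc
These letters describe the windows and do not show binding. Only this form of the motif was searched, so that genes without it may still hold a site. All windows belong to 27025 genes, so that a share of windows is not a share of genes.

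Some of the called genes encode neuropeptides or other proteins of neuronal signaling. They were picked from the calls and not from a list of such genes. *Cck* encodes cholecystokinin and lies on chromosome 9 from 121489824 to 121495694. The study uses *Cck* as a marker of the VPM, in neurons induced from astrocytes, and its VPM level is not given here. The level of *Cck* was 145, 251, 233, 119, and 271 CPM in the dLG and 23.8, 4.01, 3.403, and 14.5 CPM in the MGv, a log2FC of 4.15 (SE 0.57, adjusted p = 0.00902). *Pnoc*, the precursor of nociceptin, was at 17.9, 25.8, 31.5, 13.8, and 19.5 CPM in the dLG and 4.44, 0.633, 1.38, and 2.398 CPM in the MGv. In both genes MGv replicates a and d were the highest of the MGv but still below every dLG library, and the log2FC of *Pnoc* was 3.29 (SE 0.50, adjusted p = 0.0135). *Hdc*, which encodes the enzyme that makes histamine, was at 8.26, 13.8, 21.6, 9.08, and 8.01 CPM in the dLG and at 0.897, 0.686, 0.7397, and 0.0461 CPM in the MGv, a log2FC of 4.35 (SE 0.63, adjusted p = 0.0119). *Slc17a7*, the vesicular glutamate transporter VGLUT1, had 10.7 ± 3.603 CPM in the dLG and 2.14 ± 1.42 CPM in the MGv, a log2FC of 2.32 (SE 0.46, adjusted p = 0.0848).

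The peptide genes *Nts* and *Pdyn* were on the side of the MGv. *Nts*, which encodes neurotensin (chromosome 10 from 102481756 to 102490486), was at 0.243, 0, 0, 0.507, and 0 CPM in the dLG and at 10.6, 8.86, 6.95, and 38.7 CPM in the MGv. In 3 dLG libraries it had no read, its highest level was in MGv replicate d, and the log2FC was -6.71 (SE 0.97, adjusted p = 0.0118). *Nmbr*, the receptor of neuromedin B, was at 5.48, 0.844, 1.48, and 9.36 CPM in the MGv and had at most 2 counts in any dLG library, a level at least 28.8-fold higher than that of 3 counts per dLG library (adjusted p = 0.016). Other genes overlap 15.6% of its exonic length. *Pdyn*, the dynorphin precursor, was at 0.499, 1.27, 1.87, and 1.75 CPM in the MGv and had at most 2 counts in a dLG library, at least 9.03-fold higher by the same measure (adjusted p = 0.0636). *Nrgn*, which encodes a calmodulin-binding protein of postsynaptic sites, was at 3.01, 3.65, 3.71, 3.297, and 5.69 CPM in the dLG and 12.4, 39.9, 14.5, and 43.5 CPM in the MGv. Here MGv replicates b and d were highest, and the log2FC was -2.83 (SE 0.40, adjusted p = 0.0105). *Cd24a*, a surface glycoprotein of immature neurons and other cells, had 15.6 ± 5.15 CPM in the dLG and 38.7 ± 2.11 CPM in the MGv, with a log2FC of -1.31 (SE 0.26, adjusted p = 0.0848).

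No general neuron marker was called. *Stmn2* was at 328, 376, 361, 273, and 293 CPM in the dLG and 584, 148, 136, and 427 CPM in the MGv, a log2FC of 0.01 (adjusted p = 1), and *Map2* was at 294 to 416 CPM in the dLG and 295 to 348 CPM in the MGv (log2FC 0.06, adjusted p = 1). Of the 10 neuron markers 9 had a log2FC above 0, and the median was 0.34. None passed edgeR's test, 2 had an unadjusted p under 0.05, both higher in the dLG, and DESeq2 called 1. With the neuron marker level as a covariate, the adjusted p was 0.00188 for *Cck*, 0.017 for *Pnoc*, 0.025 for *Nts*, 0.0105 for *Nmbr*, and 0.0582 for *Nrgn*, which all stayed called, and 0.163 for *Hdc*, 0.488 for *Slc17a7*, and 0.243 for *Pdyn*, which did not. The covariate follows general neuron markers only, and the part of neuronal RNA particular to either nucleus was not tested.

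**Figure D5:**
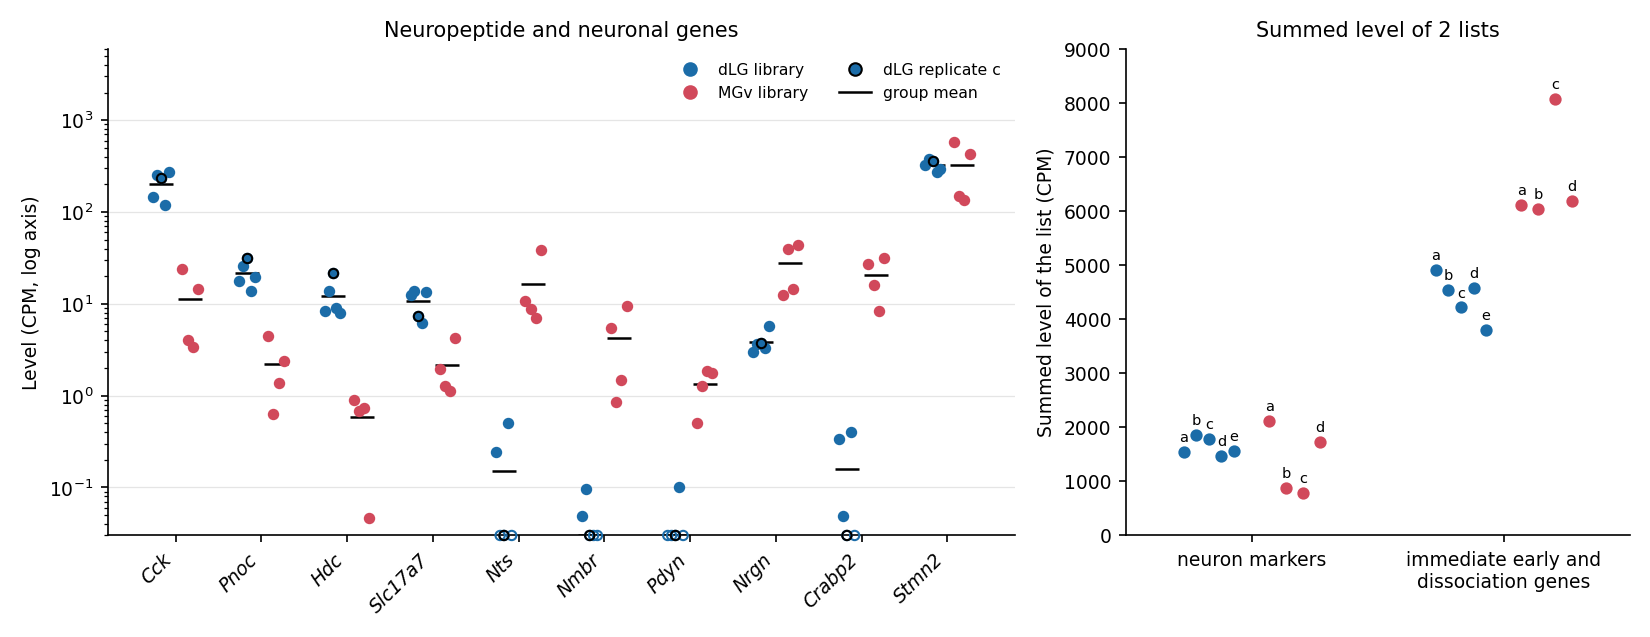
Left, levels (CPM, log axis) of peptide and neuronal genes and of *Crabp2* in the 5 dLG libraries (blue) and the 4 MGv libraries (red), with bars at the group means, dLG replicate c outlined, and open points on the lower edge for libraries at 0. *Stmn2*, a neuron marker, is shown for comparison. Right, summed level (CPM, linear axis) of 10 neuron markers and of 16 immediate early and dissociation genes with the replicate letters. MGv replicates b and c are lowest in neuron markers, and all MGv libraries are above all dLG libraries in immediate early genes.

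*Crabp2*, which encodes a cytoplasmic protein that carries retinoic acid to its nuclear receptors, had the largest fitted fold among genes with a mean of at least 10 CPM in one nucleus. It lies on chromosome 3 from 87948666 to 87953376 and was at 0.3400, 0.0486, 0, 0.406, and 0 CPM in the dLG and at 27.5, 16.2, 8.28, and 31.3 CPM in the MGv. Its level in the dLG was at most 8 counts in a library, and the log2FC was -6.98 (SE 0.78, adjusted p = 0.00209). It was called under each of the 19 alternative fits. It was the only gene called by edgeR of 14 tested members of 19 listed for the retinoic acid pathway, which had a median log2FC of -0.07. At an unadjusted p under 0.05, 1 was higher in the dLG and 1 in the MGv, against 2.27% and 2.17% of all genes tested. DESeq2 called 2 members, both higher in the MGv. *Rxrg* and *Rxrb*, retinoid X receptors and the most abundant members that were not called, were at 82.6 to 98.1 and 54.4 to 75.7 CPM in the dLG and at 38.1 to 157 and 55.7 to 74.5 CPM in the MGv.

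*Ptn* was the most abundant gene that differed. It encodes the secreted growth factor pleiotrophin, lies on chromosome 6 from 36714929 to 36810220, and was at 8442, 9684, 9859, 9508, and 8619 CPM in the dLG and 6355, 5374, 4804, and 4533 CPM in the MGv. The groups did not overlap, and the log2FC was 0.81 (SE 0.14, adjusted p = 0.0302), with an adjusted p of 0.472 within the largest library number series. *Gjb6*, the astrocyte gap junction protein connexin 30 (chromosome 14 from 57123303 to 57133611), was at 65.8, 80.3, 86.5, 82.2, and 76.7 CPM in the dLG and 37.8, 29.7, 26.9, and 25.6 CPM in the MGv, a log2FC of 1.38 (SE 0.16, adjusted p = 0.00306). It was the only gene called by edgeR of the 20 astrocyte markers, whose median log2FC was 0.13, and of the 17 genes of transmitter uptake and ion buffering, whose median was 0.08. In each of these lists, 2 genes had an unadjusted p under 0.05, all higher in the dLG, against 2.27% of all genes tested. DESeq2 called 2 genes in each list, all higher in the dLG. *Kcnj10*, the inwardly rectifying potassium channel of astrocytes, had a log2FC of 0.84 (adjusted p = 0.225). The abundant markers *Fabp7* and *Aqp4* had log2FCs of 0.13 (adjusted p = 1) and 0.12 (adjusted p = 1), and *Cspg5*, a proteoglycan, had -0.03 (adjusted p = 1).

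*Il33*, a cytokine that astrocytes release and that acts on microglia and synapses, was higher in the MGv. It lies on chromosome 19 from 29925114 to 29960718 and was at 49.01, 42.7, 33.2, 54.3, and 31.3 CPM in the dLG and 129.9, 91.4, 167, and 125.8 CPM in the MGv, with a log2FC of -1.61 (SE 0.21, adjusted p = 0.00735). It was the only called gene of 21 synapse organizers, which had a median log2FC of -0.13. Of these, 5 had an unadjusted p under 0.05, all higher in the MGv, as was the case for 2.17% of all genes tested, and DESeq2 called 3. *Sparc*, a secreted matricellular protein of astrocytes, was at 577, 486, 589.9, 415, and 742 CPM in the dLG and 1031, 1131, 930.2, and 829 CPM in the MGv. These groups did not overlap, but the log2FC of -0.80 (SE 0.17, adjusted p = 0.127) missed the threshold. *Sparcl1* was at 4335 to 6201 CPM in the dLG and 5347 to 8439 CPM in the MGv (log2FC -0.19, adjusted p = 1). *Nid1*, a basement membrane glycoprotein that was not on a list, was among the 3 most abundant genes higher in the dLG, with 143, 266, 276, 143, and 203 CPM against 41.7, 57.4, 84.3, and 59.5 CPM and a log2FC of 1.76 (SE 0.26, adjusted p = 0.0134). The matrix proteoglycan *Bcan* had a log2FC of -0.13 (adjusted p = 1), and none of the 28 extracellular matrix genes was called by edgeR, with 6 at an unadjusted p under 0.05 and 2 called by DESeq2. Of the 6, 1 was higher in the dLG and 5 in the MGv, against 2.27% and 2.17% of all genes tested. *Chst1*, a sulfotransferase of keratan sulfate, was at 55.2, 62.97, 53.6, 60.4, and 43.7 CPM in the dLG and 115, 139, 103, and 109.6 CPM in the MGv, a log2FC of -1.08 (SE 0.15, adjusted p = 0.00902).

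*Btg2*, an immediate early gene that restrains proliferation, was the most abundant gene higher in the MGv. It was at 144, 139.7, 96.5, 157, and 161 CPM in the dLG and 269, 419, 481, and 359.9 CPM in the MGv, without overlap, and had a log2FC of -1.45 (SE 0.19, adjusted p = 0.00738). It was 1 of 16 immediate early and dissociation genes and the only one called, but all 16 had a log2FC below 0, with a median of -0.55 against 0.00 over all genes tested, and 7 had an unadjusted p under 0.05, which was the case in this direction for 2.17% of all genes tested. The summed level of the list was 4904, 4541, 4216, 4580, and 3795 CPM in the dLG and 6118, 6041, 8066, and 6190 CPM in the MGv, so that the nuclei did not overlap. *Fos* was at 1952, 1802, 1762, 1648, and 1341 CPM in the dLG and 2315, 2614, 2968, and 2355 CPM in the MGv, with a log2FC of -0.59 (adjusted p = 0.183), and *Egr1* overlapped, at 573 to 1075 CPM and 905 to 1899 CPM (log2FC -0.59, adjusted p = 0.828). Genes of this list respond to tissue dissociation as well as to activity in the animal, and the part of either in these levels was not tested. DESeq2 called 4 of the 16, all higher in the MGv. The window of 250 bases before *Btg2* in RefSeq (GRCm38.p6, chr1:134079156-134079405, minus strand) holds a cAMP response element, TGACGTCA, 166 bases before the start. The element was present in 1.55% of all windows and, among the 50 called genes with a window, in *Btg2* alone. Its presence does not show binding, and a part of it in the level of *Btg2* was not tested. The window is given 5′ to 3′ on the strand of the gene, with the element in capitals.
Btg2: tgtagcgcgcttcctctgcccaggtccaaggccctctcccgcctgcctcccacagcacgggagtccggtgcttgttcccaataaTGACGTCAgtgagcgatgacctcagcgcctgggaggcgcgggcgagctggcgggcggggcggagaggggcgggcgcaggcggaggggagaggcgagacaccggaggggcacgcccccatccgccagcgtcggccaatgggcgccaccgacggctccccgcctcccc

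Of the genes called in the reactive gene list, both were low in abundance and higher in the dLG. *S1pr3*, a receptor of sphingosine 1-phosphate, was at 13.7, 13.03, 10.9, 14.3, and 5.004 CPM in the dLG and 3.19, 1.11, 3.01, and 3.09 CPM in the MGv, a log2FC of 2.13 (SE 0.42, adjusted p = 0.0805). *Hspb1*, a small heat shock protein, was at 4.42, 7.68, 5.78, 3.398, and 9.48 CPM in the dLG and 1.79, 1.48, 1.08, and 1.34 CPM in the MGv, a log2FC of 2.11 (SE 0.43, adjusted p = 0.0882). The abundant members went without a call. *Gfap* had 1359, 100.1, 79.8, 984, and 228 CPM in the dLG and 37.4, 612, 5733, and 1316 CPM in the MGv, so that the spread within each nucleus was larger than the difference (log2FC -1.81, adjusted p = 1), and *Vim*, another intermediate filament, had a log2FC of -0.13 (adjusted p = 1). The median of the 12 tested members was -0.13. At an unadjusted p under 0.05, 2 were higher in the dLG and 1 in the MGv, against 2.27% and 2.17% of all genes tested. DESeq2 called 2 and 1.

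The remaining genes higher in the dLG included enzymes, kinases, and cytoskeletal genes. *Sept4*, a septin, was at 81.8, 113, 61.6, 97.6, and 118 CPM in the dLG and 28.6, 22.00, 18.3, and 21.6 CPM in the MGv, a log2FC of 2.06 (SE 0.22, adjusted p = 0.00146). *Cyp4f15*, a cytochrome P450 of fatty acid oxidation, was at 44.4, 56.6, 68.8, 48.7, and 41.8 CPM in the dLG and 9.57, 15.3, 10.9, and 8.58 CPM in the MGv, a log2FC of 2.23 (SE 0.23, adjusted p = 0.00146). *Cpne8*, a calcium-binding copine, was at 25.2, 26.7, 30.1, 23.8, and 28.8 CPM in the dLG and 10.02, 8.704, 9.32, and 6.83 CPM in the MGv. It varied little within each nucleus, and its log2FC was 1.63 (SE 0.20, adjusted p = 0.00404). Among signaling enzymes, *Pde3a*, a cyclic nucleotide phosphodiesterase, had 41.6 ± 9.75 against 13.9 ± 1.66 CPM and a log2FC of 1.58 (adjusted p = 0.00738), *Prkch*, a protein kinase C, had 37.03 ± 6.28 against 8.098 ± 3.67 CPM and 2.19 (adjusted p = 0.00974), and *Lyn*, a Src family kinase, had 66.9 ± 10.9 against 27.6 ± 7.25 CPM and 1.28 (adjusted p = 0.0246). *Shb*, an adaptor of tyrosine kinase receptors, was at 11.4 ± 3.34 against 2.33 ± 0.607 CPM, a log2FC of 2.30 (adjusted p = 0.0127). *Ndrg1* was at 8.597, 18.4, 27.5, 12.4, and 11.7 CPM in the dLG and 2.24, 0.106, 0.148, and 1.66 CPM in the MGv, a log2FC of 3.90 (adjusted p = 0.0805), and *Serpinb1b*, a protease inhibitor with close paralogs, had 11.4 ± 3.74 against 2.28 ± 0.354 CPM and 2.32 (adjusted p = 0.0118). *Slc14a2*, a urea transporter, was at 12.6, 21.5, 48.4, 11.01, and 18.1 CPM in the dLG, with the highest level in dLG replicate c, and at 3.99, 2.53, 2.56, and 1.799 CPM in the MGv. Its log2FC was 3.03 (SE 0.47, adjusted p = 0.0156) with and 2.53 without this library. *Efhd1*, a calcium-binding mitochondrial protein, had a log2FC of 1.25 (adjusted p = 0.0135), with an overlap of 11.95% with other genes, and *Fam43a*, *0610040J01Rik*, and *Gm29521* had 1.03, 1.09, and 1.48. *Mup6* was at 0.337 to 2.38 CPM in the dLG and at 0 in the MGv, at least 9.71-fold higher than 3 counts per MGv library. It belongs to a family of nearly identical genes between which reads can be split, and its level is uncertain.

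Among the remaining genes higher in the MGv, *Lix1* had a large fold. It was at 1.55, 1.46, 8.38, 1.88, and 1.58 CPM in the dLG and 18.3, 32.9, 34.4, and 31.9 CPM in the MGv. dLG replicate c held several times the level of the other dLG libraries, and the log2FC was -3.30 (SE 0.53, adjusted p = 0.021) with and -4.18 (adjusted p = 9.58e-05) without it. *Cpne6*, a neuronal copine, was at 15.5, 3.94, 11.4, 12.1, and 14.5 CPM in the dLG and 44.7, 41.9, 96.1, and 59.3 CPM in the MGv, a log2FC of -2.40 (SE 0.37, adjusted p = 0.0143). *Exph5*, an effector of Rab27, had at most 4 counts in a dLG library and 2.44, 1.85, 2.32, and 1.84 CPM in the MGv (adjusted p = 0.0805). *Ildr2*, a membrane protein of the immunoglobulin superfamily, was among the abundant genes, at 104, 118, 110.4, 112, and 121 CPM in the dLG and 174, 199, 235, and 224 CPM in the MGv. Its log2FC was -0.88 (SE 0.13, adjusted p = 0.012), and other genes overlap 11.04% of its exonic length. *Alpl*, the tissue-nonspecific alkaline phosphatase, had a log2FC of -0.94 (adjusted p = 0.0939), *Csrp1*, a LIM domain protein, -0.81 (adjusted p = 0.0755), *Kcnc4*, a voltage-gated potassium channel, -1.22 (adjusted p = 0.096), *Pipox*, a peroxisomal oxidase, -1.31 (adjusted p = 0.0832), *Ripor2* -1.04 (adjusted p = 0.096), and *Gm973* -1.67 (adjusted p = 0.0848).

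Of the other lists, none had a called member by edgeR, with the exception of *Gjb6* among the astrocyte markers and the lists already described. For the counts that follow, 2.27% of all genes tested had an unadjusted p under 0.05 and were higher in the dLG. In the direction of the MGv it was 2.17%. Of 20 ephrin and Eph receptor genes, 3 had an unadjusted p under 0.05 and DESeq2 called 2. *Ephb3* and *Epha5*, the most abundant, had log2FCs of -0.15 and -0.37, and *Epha7* one of 1.07 (adjusted p = 0.202). Among 43 semaphorin, Slit, netrin, and receptor genes, 8 had an unadjusted p under 0.05, 6 of them higher in the MGv, DESeq2 called 1, and the abundant *Sema6a* and *Sema6d* had log2FCs of 0.31 and 0.13. Of 26 cadherins and protocadherins 1 had an unadjusted p under 0.05 and DESeq2 called none, with *Pcdh9* at 0.04 and *Pcdh10* at 0.03. Of 19 heparan sulfate enzymes 7 had an unadjusted p under 0.05 and DESeq2 called none, with *Sulf2* at -0.49 and *Ext2* at -0.18. Of 6 pretectal and midbrain factors 2 had an unadjusted p under 0.05, DESeq2 called 1, and *Meis1* and *Meis2* had -0.21 and 0.04. Among 18 cell cycle genes none had an unadjusted p under 0.05 and DESeq2 called none, with *Top2a* at 0.09 and *Rrm2* at 0.08. Neither the 6 sex-linked nor the 7 mitochondrial genes had an unadjusted p under 0.05 or a call by DESeq2. All 6 sex-linked genes had a log2FC below 0, with a median of -0.49. The Y-linked *Eif2s3y* was at 57.6, 15.5, 0, 51.9, and 56.5 CPM in the dLG and 77.6, 17.4, 69.6, and 74.1 CPM in the MGv, and *mt-Cytb* and *mt-Nd1* had log2FCs of 0.03 and 0.05.

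The other 2 regions were placed beside these genes on levels scaled over all 17 libraries, as a description. In the VPM, the somatosensory nucleus, the mean log2 level was nearer to that of the MGv for 18 of the 39 genes higher in the dLG and nearer to that of the dLG for 21 of the 27 genes higher in the MGv, where 46.3% of all genes tested were nearer to the MGv. *Zic1*, *Zic4*, and *Six3* were intermediate in the VPM, at 19.4 ± 4.004, 7.66 ± 1.32, and 11.01 ± 3.02 CPM (n = 4), and at most 0.2898 CPM in any cortical library. *Sp9* was at 0.441 ± 0.311 CPM in the VPM and at 7.52 ± 4.28 CPM in the cortex (n = 4), where its mean lay between those of the MGv and the dLG. *Crabp2* was at 0.3703 ± 0.2198 CPM in the VPM and 0.2500 ± 0.0867 CPM in the cortex, and *Nts* at 0.06201 ± 0.0742 and 0.0615 ± 0.123 CPM, so that all MGv libraries lay above all libraries of the other regions in both genes. *Fzd2*, by contrast, was at 6.29 ± 2.06 CPM in the VPM and 70.6 ± 8.305 CPM in the cortex, next to 72.1 ± 32.01 CPM in the MGv on this scale, and *Fzd10* was at 92.4 ± 13.8 and 42.9 ± 6.304 CPM. *Irx3* and *Irx5* were at 24.4 ± 1.99 and 46.9 ± 7.06 CPM in the VPM and at most 1.45 and 0.216 CPM in a cortical library. *Gjb6* was lower in the MGv than in every other region, with 158 ± 28.6 CPM in the VPM and 151 ± 18.4 CPM in the cortex, and *Il33* was at 119 ± 17.6 CPM in the VPM, close to the MGv, and at 16.4 ± 3.84 CPM in the cortex.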

How the data were processed

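RNA of sorted thalamic astrocytes was sequenced as single 50-base reads. The authors trimmed the reads, mapped them to GRCm38.p6 with STAR 2.7.0d, and counted them per gene of Ensembl release 95 with featureCounts of Subread 1.6.4, according to the study's methods and the submitters' processing notes, and they deposited raw read counts, 1 file per library. The strand setting of the counting is not given in the sources used here. The 26556 genes listed all had at least 10 counts over the 17 libraries, and 26548 were matched to symbols and GRCm38 positions of Ensembl release 96.

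Totals were 18785731 to 21371571 counts per library. The 9 libraries were grouped by the tissue label and tested alone with edgeR 4.0.16 in R 4.3.3 (TMM scaling, filterByExpr by group, robust quasi-likelihood fit and test, no covariate), with a threshold on the Benjamini-Hochberg adjusted p of 0.1 over all 16572 genes tested. All adjusted p-values are from this test unless DESeq2 1.42.0, an alternative, is named. The SE of a log2FC was derived from its size and its F statistic. The scripts were tested on simulated data. Principal components were taken from log2 CPM with a prior count of 2. P-values measure the spread between pools of brains, and nothing says whether pools were prepared on separate days. Levels over all 17 libraries used a pseudocount of 0.5. Alternatives were other scaling, filters, thresholds, and samples, covariates, and leaving out each library.

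Genes were named by a rule: all genes listed here for either nucleus after the study, the 10 called genes of lowest p per direction with a log2FC over 1, a mean of at least 1 CPM and no overlap, the 3 most abundant called genes per direction, and in each of 28 gene lists the called members (at most 4) and the 2 most abundant members that were not called. The other called genes, *Zic2*, *Zic5*, *Irx1*, *Irx2*, *Fzd7*, *Axin2*, *Lef1*, *Notum*, *Kcnj10*, *Epha7*, *Sparc*, *Fos*, *Egr1*, and the other cell type markers given were named after their values were seen, as was the search for 2 motifs. The comparison and the lists were chosen with earlier results of these data known. Values of some genes are not reported here.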

Additional observations from a re-analysis of the deposited data

Results flagged for a closer look

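Of 306 sets of 4 or 5 libraries of one nucleus, covering named genes and summed lists, 22 had a highest or lowest library that stood apart by Dixon's ratio, the gap to the nearest library divided by the range. For independent and normally distributed values, chance gives about 1 in 20, or 15.3 sets. The distribution was not checked, and the summed lists share genes with the single sets, so that 15.3 is a rough guide only. In the dLG, the highest library stood apart for *Lix1* (ratio 0.940, 1.46 to 8.38 CPM), *Slc14a2* (0.719, 11.01 to 48.4 CPM), *Nrgn* (0.739), *Lhx2* (0.742), *Map2* (0.763), and *Pdyn* (1, from 2 counts in 1 library). The same held for *Cldn5* (0.917), *Rgs5* (0.766), and *Col1a2* (0.847), and for the summed endothelial (0.717, 3.06 to 49.6 CPM) and mural and meningeal fibroblast markers (0.774, 15.4 to 44.2 CPM).

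In the MGv, the highest library stood apart for *Fzd2* (ratio 0.865, 52.3 to 122 CPM), *Sfrp1* (0.941, 35.4 to 51.1 CPM), *Nts* (0.885, 6.95 to 38.7 CPM), *Kcnc4* (0.914), *Pipox* (0.941), and *Sparcl1* (0.911), and for the summed immediate early and dissociation genes (0.927, 6041 to 8066 CPM). The lowest library stood apart for *S1pr3* (0.912), *Lix1* (0.842), *Eif2s3y* (0.866, 17.4 to 77.6 CPM), and the summed factors of GABAergic lineages (0.841, 318 to 379 CPM). The called genes among these were without overlap between the nuclei, as all called genes were.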

How the results depend on the processing

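None of the 66 genes changed direction under any of the alternatives run, and 12 were called in each of them. As none of the 66 overlapped between the nuclei, leaving out libraries, filtering, or rescaling could hardly have changed a direction. The counts were 39 genes higher in the dLG and 27 higher in the MGv. An adjusted p under 0.05 gave 29 and 13. DESeq2 gave 153 and 124, which included all 39 and 27 genes, and a fit of the 3 nuclei gave 64 and 48. Counts were 21 and 9 within the largest library number series, 18 and 4 with the series as a covariate, 24 and 15 with the neuron marker level and 18 and 9 with the oligodendrocyte marker level as a covariate. DESeq2 size factors and other filters gave 36 to 39 and 25 to 29. Leaving out 1 library gave 25 to 48 and 11 to 37. The count higher in the dLG moved by over 1.5 times without MGv replicate d (25), and that in the MGv without dLG replicate a (13), dLG replicate b (13), MGv replicate b (16), and MGv replicate d (11). The cause of these shifts was not tested. Of 2448 values of 123 single genes under alternatives, 2009 kept direction and side of the threshold, 424 lost the call, 15 gained it, and 0 reversed.

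With the replicate letter as a block, 12 genes were higher in the dLG and 6 in the MGv. Same-letter libraries had correlations of deviations of 0.06, -0.03, -0.09, and 0.23 for a to d, and only d correlated best with its own letter in both nuclei, so that the letters were not taken as a pairing.

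The difference in mean score on the first component, 31.7, was 13.2 with the regularized logarithm (p = 0.00794, exact permutation test), 48.6 with all genes (p = 0.198), and 42.7 with 2000 genes (p = 0.127). That on the second, 26.5, was by the same exact permutation test 4.20 (p = 0.317), 4.85 (p = 0.817), and 33.4 (p = 0.0159) in the same order. Leaving out 1 library gave 28.8 to 38.4 and 12.3 to 29.7, the latter lowest without dLG replicate c (12.3, exact permutation p = 0.343). Levels under 3 counts, at most 0.158 CPM, were not resolved at this depth.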
